A study of Homo sapiens with 2 samples.

Results

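IMPDH1 and 9 further genes of purine nucleotide synthesis were followed in 2 cultures labelled as human colon cancer cells. However, several defining intestinal markers read below the median of all probes in both, and the identity of the lines was not tested. The genes were PPAT, GART, PFAS, PAICS, ADSL, ATIC, IMPDH1, IMPDH2, GMPS and HPRT1, and all 10 were found by symbol among 20046 named genes, with 18 of the 47323 probes. IMPDH1 was chosen by its measured intensities, because its brightest probe differed between these cultures, and the others for their place in its pathway, so the values are given as a description and nothing rests on them. HCT-8/V is labelled as the vincristine-resistant form of HCT-8, an established colon cancer line, and vincristine is a drug that binds tubulin. Per the labels, both cultures had received the plasmid pcDNA3.1-Twist, which carries the transcription factor Twist, 48 h before RNA was taken. Each line was measured on 1 Illumina bead array. The labels do not settle whether either was meant as a control without the plasmid, in which case its effect would be part of each difference. No other cultures were analysed here, and no test between the lines was possible. A difference between these arrays can therefore come from the line, the culture, its treatment or the array, which cannot be told apart, nor can fewer expressing cells and less RNA per cell.

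The purine ring is built on phosphoribosyl pyrophosphate (PRPP) by a chain of enzymes that ends in inosine monophosphate (IMP). From IMP, one branch leads to AMP and the other, through IMP dehydrogenase (IMPDH1 or IMPDH2) and GMP synthetase, to the guanine nucleotides. IMP dehydrogenase is the rate-limiting step of the guanine branch and the target of mycophenolic acid, and growing cells are known to rely mostly on the IMPDH2 enzyme. HPRT1 bypasses the chain by salvaging hypoxanthine and guanine. Dividing cells draw on both routes for RNA, DNA and GTP.

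Upstream sequence is shown for the member with the largest difference (IMPDH1, chr7:128409983-128410232, minus strand), for the enzyme that completes IMP (ATIC, chr2:215311809-215312058, plus strand), and for the stretch between the start sites of PPAT and PAICS (chr4:56435616-56435751, plus strand). PPAT and PAICS are neighbours read in opposite directions, and PAICS has 3 start windows in the table. Their annotated spans overlap, at chr4:56393362-56435615 for PPAT and chr4:56410507-56464578 for PAICS. The stretch lies upstream of the PPAT start at 56435615 and of the PAICS start nearest to it on that side, at 56435752. All are from RefSeq, build GRCh38.p14, written 5′ to 3′ on the strand named. Capitals mark the E-box CACGTG, a motif that MYC can bind, and the GC box GGGCGG or its complement, a motif of SP1.
IMPDH1: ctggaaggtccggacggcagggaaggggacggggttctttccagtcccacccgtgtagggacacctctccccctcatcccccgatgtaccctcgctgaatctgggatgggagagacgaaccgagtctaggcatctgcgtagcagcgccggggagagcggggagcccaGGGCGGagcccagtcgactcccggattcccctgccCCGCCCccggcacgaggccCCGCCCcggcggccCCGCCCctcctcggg
ATIC: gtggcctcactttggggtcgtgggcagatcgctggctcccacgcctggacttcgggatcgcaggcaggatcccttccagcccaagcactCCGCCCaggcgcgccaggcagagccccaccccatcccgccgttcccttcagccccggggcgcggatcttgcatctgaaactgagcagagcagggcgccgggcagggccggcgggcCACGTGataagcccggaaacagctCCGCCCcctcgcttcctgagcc
PPAT to PAICS: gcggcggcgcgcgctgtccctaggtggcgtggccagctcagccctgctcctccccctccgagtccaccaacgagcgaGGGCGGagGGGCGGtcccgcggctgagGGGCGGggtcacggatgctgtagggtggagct
Promoter windows of 250 bases before to 50 after a start were held for 8 of the 10 members, in 12 windows. The E-box was found, on either strand since it reads the same on both, for ATIC, PPAT and PAICS, in 3 of the 12 windows, and in 7.26% of all 35116 windows. For PPAT and PAICS it was 1 shared site, chr4:56435792-56435797, just outside the stretch shown. In the sequences shown, 1 E-box stands in that of ATIC, and the GC box occurs 4 times upstream of IMPDH1, 2 times upstream of ATIC and 3 times between PPAT and PAICS. No match overlapped a match of the other motif in these sequences. The GC box was found in 9 of the members' 12 windows, with at least 1 for each of the 8 members, and in 45.0% of all windows. A match describes the letters only, and binding was not measured.

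Values are the deposited intensities on a linear scale, and every log2 difference has the HCT-8 value taken from that of HCT-8/V. An intensity was raised to a floor, the median of all probes on its array (12.4), before log2 was taken, and an upper floor, the 75th percentile (81.3), marked probes that were clearly bright. Where a gene had several probes, the brightest by mean intensity stood for it. All 10 members were above the upper floor on both arrays by that probe. Of the 18 probes, 16 were above the floor on both arrays, 14 were above the upper floor on both, and 2 were below the floor on both. A probe's intensity depends on its sequence, so levels were compared between the lines and not between genes.

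By the brightest probe, HCT-8/V read higher for 8 members and lower for 2, with a median log2 difference of 0.10. Among all 13763 genes that passed the floor in either line, 52.8% were higher, with a median of 0.03, and among the 3159 genes with a mean intensity within the members' range, 374 to 2938, and above the floor on both arrays, 53.1% were. IMPDH1 alone among the members was at least 2-fold different, and 8.01% of all genes above the floor were at least 2-fold different in either direction. That share is made mostly of dim genes. Among the 3159 genes of the members' intensity range it was 0.285%, and their log2 differences had a standard deviation of 0.31. The other 9 members ranged from -0.13 to 0.22 on the log2 scale, which is inside that spread. The largest fold after IMPDH1 was 1.17, in PPAT, against 2.40 in IMPDH1.

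**Figure D1:**
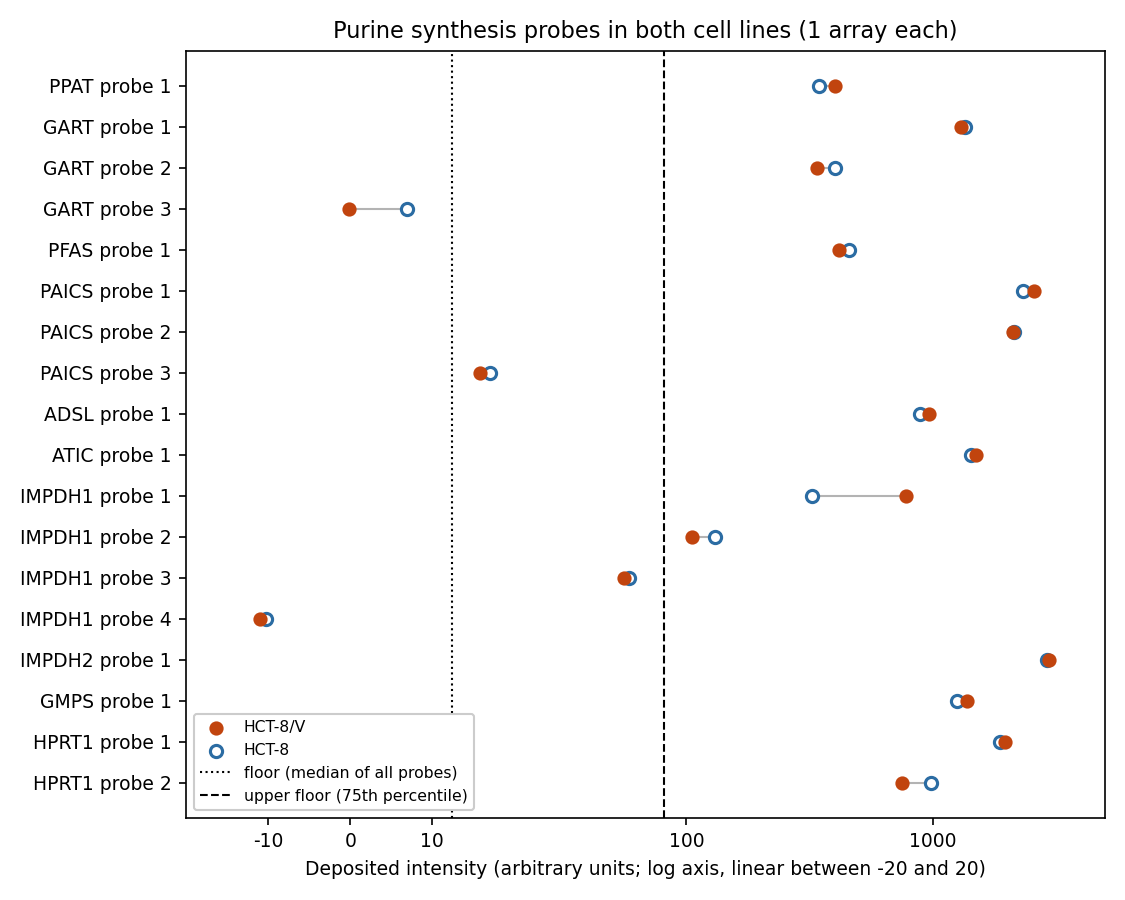
Deposited intensity of every probe of the 10 members, in pathway order and by brightness within a gene, on a log axis that is linear between -20 and 20; filled points are HCT-8/V and open points HCT-8, with 1 array each. The points of 1 line lie close to those of the other for most probes, the brightest IMPDH1 probe is far apart at 776 in HCT-8/V and 323 in HCT-8, and a probe of GART and one of IMPDH1 lie below the floor (dotted).

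The enzymes that build IMP were nearly level between the lines. Of these 6 genes, HCT-8/V had 4 higher and 2 lower readings, and the median log2 difference was 0.10. PPAT, the amidotransferase that commits PRPP to purine synthesis, read 403 in HCT-8/V and 346 in HCT-8 on its only probe, a log2 difference of 0.22. GART, which carries several early steps and uses formyl-tetrahydrofolate, read 1308 in HCT-8/V and 1351 in HCT-8 on its brightest probe (log2 difference -0.05). PFAS, a further amidotransferase of the chain, read 417 in HCT-8/V and 455 in HCT-8 (log2 difference -0.13). PFAS was thus the lowest of the members and PPAT the highest after IMPDH1, and each differed by less than the spread among genes of like brightness.

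PAICS, which joins carboxylase and synthetase activities in one protein, read 2570 in HCT-8/V and 2327 in HCT-8 on its brightest probe, a log2 difference of 0.14. Its second probe was level, at 2115 in HCT-8/V and 2145 in HCT-8 (log2 difference -0.02). The direction for PAICS thus depended on the probe. PPAT and PAICS, which share the upstream stretch shown above, were both higher by their brightest probes, by amounts that do not stand out among genes of like brightness.

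ADSL, the lyase that acts both in the chain and on the way to AMP, read 970 in HCT-8/V and 888 in HCT-8 (log2 difference 0.13). ATIC, which adds the last formyl group and closes the ring, read 1498 in HCT-8/V and 1434 in HCT-8 (log2 difference 0.06). Each has 1 probe, so neither reading has a second measurement on these arrays.

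In the guanine branch, the members did not read alike. IMPDH2 read 2961 in HCT-8/V and 2916 in HCT-8 on its only probe, a log2 difference of 0.02, the smallest of all members and, once differences were centred on the median of all genes, below 0. GMPS, which converts XMP to GMP, read 1383 in HCT-8/V and 1261 in HCT-8 (log2 difference 0.13). IMPDH1 read 776 in HCT-8/V and 323 in HCT-8 on its brightest probe, ILMN_1676515, which is 2.40-fold higher (log2 difference 1.27). Of the 2 IMP dehydrogenase genes, IMPDH1 thus had a large reading difference on its brightest probe and IMPDH2 had almost none.

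The other IMPDH1 probes did not share this difference. ILMN_2388363 read 105 in HCT-8/V and 131 in HCT-8, a log2 difference of -0.31 and above the upper floor on both arrays. ILMN_3306977 was dimmer and read 55.6 in HCT-8/V and 58.2 in HCT-8 (log2 difference -0.07). ILMN_1690343 was below 0 on both arrays, at -11.0 in HCT-8/V and -10.2 in HCT-8, so no fold is given. Of 4 probes, 1 was thus higher in HCT-8/V, 2 were lower by small amounts and 1 gave no signal. The annotation ties the brightest and the dimmest probe to the same transcript, NM_000883, and the other two to NM_183243 and NM_001142573, all of them listed under IMPDH1 in the current RefSeq table. IMPDH1 is known to make several transcripts, with particular forms in the retina. Which transcripts each probe detects was not tested, because probe sequences were not used here. RefSeq also lists 11 pseudogenes under the symbol IMPDH1, none of them with a named probe in the table, and whether any of them adds to the signal was not tested.

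**Figure D2:**
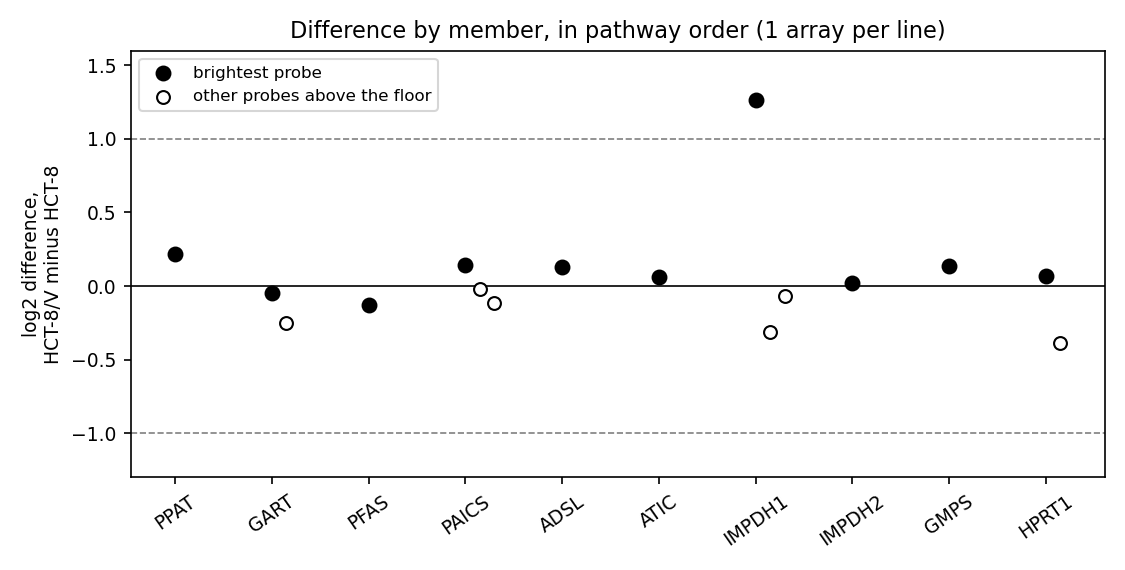
Log2 difference, HCT-8/V minus HCT-8, of each member in pathway order, for the brightest probe (filled) and the other probes above the floor (open); dashed lines mark 2-fold. IMPDH1 at 1.27 is the only point beyond 2-fold, and all 6 open points lie below 0.

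The probes of IMPDH1 stood far apart, which follows in part from choosing the gene by its brightest probe. The gap between the highest and lowest log2 difference was 1.58 for the 2 IMPDH1 probes above the upper floor on both arrays. Of 1535 genes with at least 2 such probes, the median gap was 0.275, and 5 genes (0.326%), IMPDH1 among them, had a gap as wide. For the other members with 2 such probes, the gap was 0.45 in HPRT1, 0.20 in GART and 0.16 in PAICS. Opposite directions as such were common, in 41.6% of the 1535 genes, and in 3 of the 4 members. Among the 5 genes, IMPDH1 included, that were past 2-fold above the upper floor on both arrays and had at least 2 such probes, 4 had probes of opposite direction.

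HPRT1 was also split. Its brightest probe read 1974 in HCT-8/V and 1884 in HCT-8 (log2 difference 0.07), and its second probe 751 in HCT-8/V and 982 in HCT-8 (log2 difference -0.39). GART's second probe read 338 in HCT-8/V and 402 in HCT-8 (log2 difference -0.25), in the direction of its first. Its dimmest probe was below the floor on both arrays, at -0.17 in HCT-8/V and 6.90 in HCT-8, and the dimmest probe of PAICS was near it, at 15.8 in HCT-8/V and 17.1 in HCT-8. All 6 probes other than the brightest of their gene that were above the floor were lower in HCT-8/V. Of all such probes in the table, 57.6% were lower. Counted by probe, 8 of the members' 16 measured probes were higher and 8 lower, with a median log2 difference of 0.00, and 1 was at least 2-fold different, beside 8.54% of all probes above the floor.

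**Figure D3:**
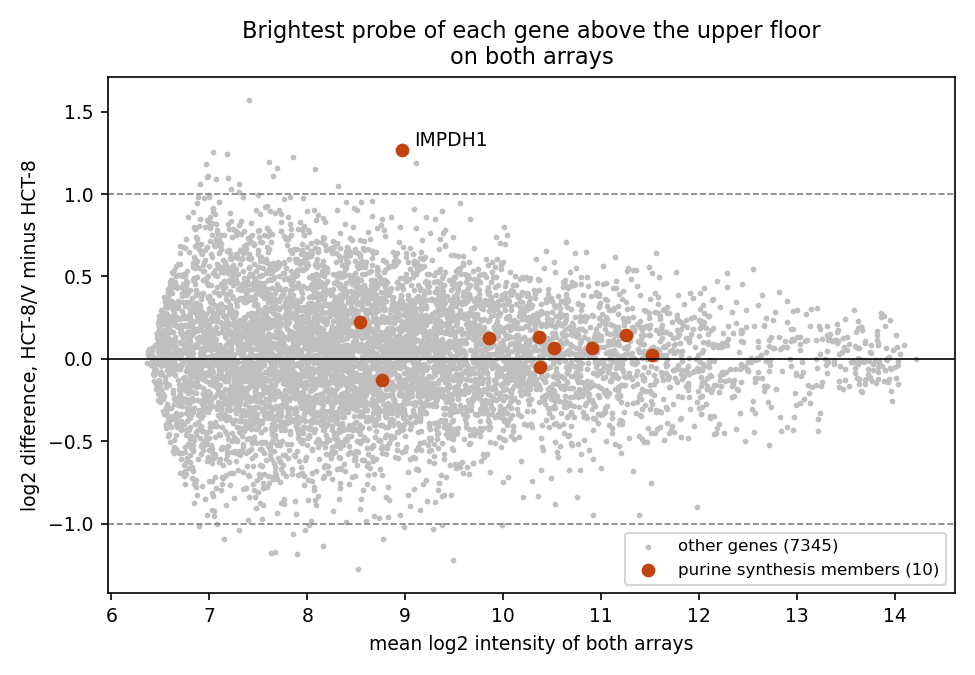
Log2 difference, HCT-8/V minus HCT-8, against the mean log2 intensity of both arrays, for the brightest probe of the 7355 genes above the upper floor on both arrays; coloured points are the 10 members. IMPDH1, which was chosen by this difference, is ranked 2 of 7355 by a higher value in HCT-8/V. The other 9 members lie within the band of the remaining genes.

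By that probe, IMPDH1 had the second highest difference in favour of HCT-8/V of the 7355 genes above the upper floor on both arrays. The gene was chosen by that same difference, so a high rank follows from the choice. Its second probe was lower in HCT-8/V (log2 difference -0.31). The 5 genes nearest to it in their pair of log2 intensities were BRAT1, CUEDC1, RP9, BTBD2 and TICAM1. BRAT1, a gene of the DNA damage response, was the nearest, at 836 in HCT-8/V and 367 in HCT-8 (distance 0.21 on the log2 scale). The others were 1.73-fold to 1.88-fold higher in HCT-8/V, at distances of 0.31 to 0.39. Likeness over only 2 arrays is a nearness of readings and no more.

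Around the members, 66 further genes of nucleotide metabolism were listed in 11 groups. Of these, 59 were matched to a probe and 54 passed the floor in either line, 31 of them with a higher and 23 with a lower reading in HCT-8/V, and a median log2 difference of 0.05. At least 2-fold differences were seen in 1 higher and 2 lower genes, all dim, beside 4.24% and 3.77% of all genes above the floor. Of the 43 genes above the upper floor on both arrays, none was 2-fold different, 27 were higher and 16 were lower.

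The bright genes of PRPP supply were nearly level. PRPS2, a PRPP synthetase, read 2027 in HCT-8/V and 2186 in HCT-8 (log2 difference -0.11), and PRPSAP2, a partner protein of the synthetase, had the largest difference of the bright genes in this group, at 605 in HCT-8/V and 537 in HCT-8 (0.17). Of the 5 genes, 3 were higher and 2 lower. The largest difference was in the dim PRPS1L1, at 28.45 in HCT-8/V and 48.96 in HCT-8 (-0.78). On the way to AMP, ADSS1, an adenylosuccinate synthase, read 891 in HCT-8/V and 819 in HCT-8 (log2 difference 0.12), but its second probe, at 40.0 in HCT-8/V and 56.6 in HCT-8, was lower (-0.50). ADSS2 was not matched.

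Besides HPRT1, salvage was 1 gene higher and 3 lower by the brightest probe, a tally that turned to 3 higher and 1 lower with the mean of all probes and with the second brightest. DCK, the kinase that salvages deoxynucleosides, read 137 in HCT-8/V and 184 in HCT-8 (log2 difference -0.42), while its dimmer second probe went the other way (0.59). DGUOK, its mitochondrial counterpart for purines, read 1740 in HCT-8/V and 1974 in HCT-8 (-0.18), with a second probe at 0.18. The measured enzymes that convert AMP and GMP back to IMP were dim or below the floor, and GMPR2 was not matched. GMPR read 34.2 in HCT-8/V and 28.3 in HCT-8. AMPD3, a deaminase of AMP, was above the floor in HCT-8 alone, at 4.09 in HCT-8/V and 31.9 in HCT-8, a fold of at least 2.57 towards HCT-8, and averaging its 4 probes gave a log2 difference of -0.34.

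Purine breakdown was divided, with 4 genes higher and 4 lower. PNP, the phosphorylase that releases guanine and hypoxanthine for HPRT1, read 408 in HCT-8/V and 293 in HCT-8, a log2 difference of 0.48. NT5C3A, a nucleotidase that favours pyrimidines, read 1862 in HCT-8/V and 2166 in HCT-8 (-0.22). XDH, which makes uric acid, was below 0 on both arrays. The kinases that raise nucleotides to di- and triphosphates were 5 higher and 5 lower. GUK1, which phosphorylates GMP, the product of the guanine branch, read 1576 in HCT-8/V and 1227 in HCT-8 (0.36). AK1, an adenylate kinase, read 888 in HCT-8/V and 617 in HCT-8 (0.53), whereas NME1, a nucleoside diphosphate kinase, read 5037 in HCT-8/V and 5709 in HCT-8 (-0.18, with a second probe at 0.36).

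TPMT, which methylates thiopurine drugs, had the largest difference among the bright genes of these 11 groups, at 373 in HCT-8/V and 204 in HCT-8 (log2 difference 0.87). ITPA, which clears inosine triphosphate, read 517 in HCT-8/V and 389 in HCT-8 (0.41), and both its probes were higher in HCT-8/V.

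The measured genes of folate one-carbon metabolism, the source of the formyl groups used by GART and ATIC, were all 6 higher in HCT-8/V, by a median log2 difference of 0.15 and with none at 2-fold. MTHFD2, the mitochondrial folate enzyme, read 1071 in HCT-8/V and 750 in HCT-8 (0.51), and SHMT2, which draws one-carbon units from serine, 2916 in HCT-8/V and 2586 in HCT-8 (0.17). ALDH1L1, which consumes formyl-tetrahydrofolate rather than making it, was counted among the 6 with a reading at the floor, 12.8 in HCT-8/V and -5.75 in HCT-8. Genes of glutamine, serine, glycine and aspartate metabolism, most of which supply purine synthesis, were 4 higher and 3 lower. PHGDH, the entry to serine and glycine synthesis, read 5709 in HCT-8/V and 4685 in HCT-8 (0.29), and ASNS, an asparagine synthetase that consumes aspartate and glutamine, 1792 in HCT-8/V and 1442 in HCT-8 (0.31, with a second probe at -0.16).

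Pyrimidine synthesis, the parallel pathway, was 4 higher and 2 lower. TYMS, thymidylate synthase, read 1527 in HCT-8/V and 1285 in HCT-8 (0.25). Both large differences there were in dim genes: DHODH read 27.9 in HCT-8/V and -0.06 in HCT-8, at least 2.24-fold higher, and UMPS 23.0 in HCT-8/V and 53.4 in HCT-8 (log2 difference -1.21). Ribonucleotide reductase, which turns ribonucleotides into DNA precursors, was lower in HCT-8/V for all 3 subunit genes. RRM1 read 3714 in HCT-8/V and 4676 in HCT-8 (-0.33), RRM2 132 in HCT-8/V and 236 in HCT-8 (-0.84), and the dim RRM2B 30.0 in HCT-8/V and 54.1 in HCT-8 (-0.85).

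**Figure D4:**
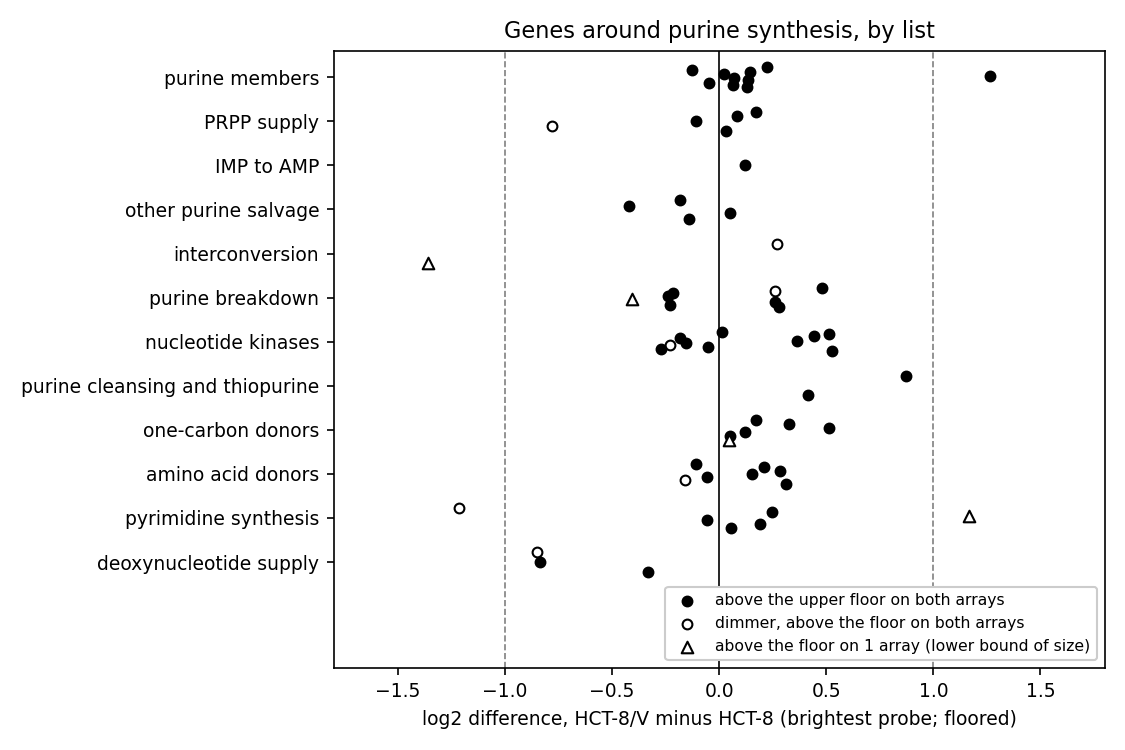
Log2 difference, HCT-8/V minus HCT-8, of each gene in the members' list and the 11 groups around it, by the brightest probe; filled points are above the upper floor on both arrays, open circles are dimmer and triangles are above the floor on 1 array, so their size is a lower bound. IMPDH1 is the only filled point past 2-fold (dashed lines); the 3 ribonucleotide reductase genes lie below 0 and the 6 one-carbon genes above.

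MYC, a transcription factor known to activate purine synthesis genes, differed by probe, at 3076 in HCT-8/V and 2704 in HCT-8 on the brightest (log2 difference 0.19) and lower on the second (-0.16). Its partner MAX read 66.9 in HCT-8/V and 60.3 in HCT-8.

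The colon label was set against 13 epithelial and intestinal markers. Of these, 7 were below the floor on both arrays (CDX1, CDX2, VIL1, CDH1, KRT20, CEACAM5 and LGALS4), while KRT8 read 2283 in HCT-8/V and 2199 in HCT-8. KRT18 read 560 in HCT-8/V and 445 in HCT-8 (log2 difference 0.33), and EPCAM 80.0 in HCT-8/V and 117 in HCT-8 (-0.55). CDH17 was dim but above the floor, at 65.6 in HCT-8/V and 66.4 in HCT-8. So was GPA33, at 47.1 in HCT-8/V and 40.9 in HCT-8, and KRT19 lay at the floor. The summed intensity of all 13 was 3063 in HCT-8/V and 2898 in HCT-8. Of 11 mesenchymal and mesothelial markers, 7 passed the floor in either line, with a sum of 11700 in HCT-8/V and 11170 in HCT-8. VIM read 5944 in HCT-8/V and 5921 in HCT-8, and MSLN 5251 in HCT-8/V and 4828 in HCT-8. PDGFRB and CDH2 were less bright, COL1A1 was above the upper floor in HCT-8/V alone, and COL3A1 was dim. UPK3B was above the floor in HCT-8 alone, at 10.99 in HCT-8/V and 31.09 in HCT-8, a fold of at least 2.50. FN1, COL1A2, THY1 and WT1 were below the floor on both arrays by the brightest probe. Of 6 matched leukocyte and endothelial markers, 3 passed the floor in either line, all dim, with a sum of 81.3 in HCT-8/V and 83.7 in HCT-8. CD14 was the brightest, at 42.4 in HCT-8/V and 35.6 in HCT-8. PECAM1 read 14.4 in HCT-8/V and 34.2 in HCT-8 (log2 difference -1.24). At least 2-fold lower readings in HCT-8/V were seen in 3.77% of all genes above the floor. The marker sums were thus close between the lines. The first sum is mostly KRT8 and the second mostly VIM and MSLN, so they say little about the other markers, some of which differed more. Defining intestinal genes such as CDX2 and VIL1 were below the floor in both lines, while CDH17 and GPA33 were dim but above it.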

How the data were processed

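The deposited table held 1 intensity per probe for each of 2 arrays, and the authors' background correction and scaling are not given in the sources used here. As the deposited values show, the intensities were linear, 29.2% were below 0 on each array, and the sorted arrays lay within 1% of each other at 97.1% of ranks, so a shift of most genes would not be visible. No detection p-values were used. Bead arrays were biotin-labelled, per the labels' protocols. Gene names came from the platform annotation, with 30113 probes having 1 symbol, 8 several and 17202 none. Through the Entrez ID 30074 were updated to RefSeq GRCh38.p14.

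With Python 3.11.15 and pandas 2.3.3, values were floored, taken to log2 and subtracted, and the step was tested on simulated data. Differences of 2-fold or more were counted. The number of arrays (1 per line) limits the precision, and no p-value or replicate error exists. The members, lists and alternatives were chosen with earlier results of these data known. Named are all members, and of each further list the brightest gene, the bright gene with the largest difference and any gene past 2-fold; the remaining genes were named after their values were seen. Alternatives covered floor, probe choice, scaling, loess (span 0.3, statsmodels 0.14.6) and fold.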

Additional observations from a re-analysis of the deposited data

How the results depend on the processing

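The IMPDH1 difference depended on the probe. Its log2 difference was 1.27 with the brightest probe, 0.22 with the mean of all 4 probes and -0.31, reversed, with the second brightest. Leaving out the floor (with 46 added to each intensity before log2), median centring and removal of a loess trend were also tried. Each moved it by less than the 0.34 standard deviation over genes above the upper floor on both arrays. The upper floor and quantile normalization left it at 1.27, and neither is a check of it. Both readings lay above the upper floor, and the sorted arrays were nearly matched already. The count of members past 2-fold was 1, and it was 0 with the mean of all probes, with the second brightest probe and at 3-fold. With the second brightest probe, which 4 members have, 0 were higher and 4 lower. The split of 8 higher and 2 lower members became 7 and 3 with the mean of all probes, where HPRT1 turned, and with median centring, where IMPDH2 turned, and 7 and 2 without IMPDH1. The 6 one-carbon genes stayed higher and the 3 ribonucleotide reductase genes lower under all 3 scaling alternatives, which were weak checks of direction. Quantile normalization could hardly move any value on arrays so nearly matched. Median centring took 0.033 from each gene, less than the smallest of these differences, 0.047 in ALDH1L1. Loess moved the list medians from 0.148 to 0.132 and from -0.836 to -0.872. Directions also held with the mean of all probes, which could move only SHMT1 and RRM2B. The dimmest SHMT1 probe was lower in HCT-8/V (log2 difference -0.45). The upper floor dropped ALDH1L1 and RRM2B and left 5 higher and 2 lower. For the other 9 members, 56 of 57 values under an alternative moved by less than that standard deviation, the exception being HPRT1 at -0.39 with its second probe. Many of these values could not move, so the tally does not measure stability. The upper floor lay below all readings used, and quantile normalization met arrays already nearly matched. For the 6 members with 1 probe, the mean of probes is the same reading. Median centring takes 1 fixed amount from every gene. Over the whole table, 583 genes passed 2-fold towards HCT-8/V and 519 towards HCT-8, against 24 and 25 at the upper floor and 375 and 329 with the mean of all probes. No paired analysis was possible because each line has 1 array. Dim probes near the floor limit the fold that can be read there.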
